A study of Mus musculus with 18 samples.

Results

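The CDK inhibitors of the CIP/KIP and INK4 families were followed across every library of a study of senescence in MOVAS cells. The genes were taken by symbol from the deposited expression table, which gave 7 of its 21959 genes: Cdkn1a, Cdkn1b and Cdkn1c of the CIP/KIP family and Cdkn2a, Cdkn2b, Cdkn2c and Cdkn2d of the INK4 family. MOVAS is a mouse aortic smooth muscle line immortalised with a simian virus large T antigen. RNA was sequenced from 18 libraries in 6 groups of 3. The Dox group was treated with doxorubicin, an anthracycline that poisons type II topoisomerase and breaks DNA, the H2O2 group with hydrogen peroxide, an oxidant, and the Blank group was the control. The D_I, H_I and B_I groups carry only the label isoliensinine, a lotus alkaloid, and were read from their parallel titles as the isoliensinine arms of Dox, H2O2 and Blank. The series describes the Dox and H2O2 groups as induced to senescence and names the clearance of senescent cells by natural killer cells as its subject. No source used here gives doses, treatment times or the number of separate cultures, and every library comes from the same line. The p-values therefore measure the spread between these libraries, which may be technical.

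Cyclin-dependent kinases (CDKs) drive the cell cycle when bound by cyclins, and their inhibitors stop them in distinct ways. The CIP/KIP proteins p21, p27 and p57 grip the cyclin and the kinase together and act on several cyclin-CDK complexes. The INK4 proteins p16, p15, p18 and p19INK4D are built of ankyrin repeats and bind only CDK4 and CDK6, which keeps them from cyclin D. Either way the retinoblastoma protein stays active and holds back the E2F factors that open DNA replication. p21 is a target of p53, and p16 and p21 are the inhibitors most often used as marks of senescence, in vascular smooth muscle as in other cells. Large T antigen binds both the retinoblastoma protein and p53.

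Library totals ran from 12859609 to 23284077 counts, and the median biological coefficient of variation was 0.219. Levels below are CPM, counts relative to library size scaled by trimmed means of M-values, as mean ± SD over n = 3 libraries, and levels of different genes are compared only as the deposited FPKM, which divides by gene length. All 7 genes passed edgeR's expression filter and were among the 13375 tested. Of 10 smooth muscle markers, 1 had a mean below 1 CPM in every group. It was Tagln, the gene of transgelin, at most 0.8092 CPM in any library, whereas Acta2, the gene of smooth muscle actin, was at least 806.4 CPM. A pair of libraries stood apart: on the first principal component (23.5% of variance) Blank_4 lay at -69.71 and B_I_3 at -61.32, and their Acta2 was 4514 and 3875 CPM, against 806.4 and 901.2 CPM in the other Blank libraries and 1122 and 1178 CPM in the other B_I libraries. Myh11, another smooth muscle marker, went the other way, at 1.803 CPM in Blank_4 and 3.337 CPM in B_I_3. The other Blank libraries held 11.33 and 5.608 CPM of Myh11, and the other B_I libraries 6.808 and 4.776 CPM. Cnn1, also of that list, was 6.312 CPM in Blank_4 (1.308 and 1.787 CPM in the others) and 3.786 CPM in B_I_3 (3.608 and 1.872 CPM). Fibroblast markers also followed the groups: their summed level was 4290 to 4630 CPM in D_I, 4160 to 4500 in Dox, 6590 to 8120 in H_I, 6420 to 8140 in H2O2, 10600 to 13500 in B_I and 12100 to 15300 in Blank, none of the 10 was at 0 in any group, and 5 of 9 tested were lower in Dox against Blank and 3 in H2O2 against Blank. These calls were 55.6% and 33.3% of the tested markers, against 21.7% and 1.43% of all tested genes. Muc2, a colon mucin, was 168.6 CPM in H_I_1 and 44.27 CPM in H2O2_3. The other H_I libraries held 49.71 and 60.39 CPM of it, and the other H2O2 libraries 9.871 and 6.385 CPM. Muc2 was not confined to these groups, at 57.73 CPM in B_I_1, 50.61 CPM in Dox_1 and 42.96 CPM in Blank_1. Results that move with Blank_4, B_I_3, H_I_1 and H2O2_3 are given with and without them.

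The genes lie on 5 chromosomes, by the coordinates of the deposited table, for which no source used here names a genome build. Cdkn1a spans chr17:29309950-29319701 on the plus strand and Cdkn1b chr6:134897364-134902476 on the plus strand. Cdkn1c, an imprinted gene, spans chr7:143012076-143014787 on the minus strand. Cdkn2a (chr4:89192708-89212890) and Cdkn2b (chr4:89224536-89229276) are neighbours on the minus strand, and Cdkn2c (chr4:109518073-109524386) lies farther along the same chromosome. Cdkn2d spans chr9:21199706-21202703 on the minus strand. No other gene of the table overlaps any of the 7, so a strand setting that the protocols do not state could not mix them with an overlapping gene listed there. Stretches of 50 bases shared with transcripts of other genes made up 2.14% of Cdkn1a and 0% of the 6 others. This count covers identical stretches only, so it sets no limit on reads from near-identical copies.

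The windows of 250 bases upstream of the RefSeq start sites (build GRCm38.p6) are shown for Cdkn1a, the member that responded most, and for the neighbours Cdkn2a and Cdkn2b, which share a locus but not a promoter. Their positions do not match the deposited coordinates. Cdkn1a starts there at chr17:29309950, while its windows end at 29090978 and 29093768. The windows therefore cannot be placed on the gene spans given above. Windows were found for 6 of the 7 genes (9 start sites); Cdkn1c had none. Capitals mark matches, on either strand, to the p53 core (CATG, 6 bases of any kind, CATG), the cyclic AMP response element TGACGTCA or the GC box GGGCGG, and no match overlapped another. Cdkn1a has a pair of start sites 2790 bases apart and Cdkn2a a pair 12427 bases apart. The upstream start of Cdkn2a opens the transcript of p19ARF, which blocks the p53 antagonist MDM2, and the downstream start opens that of p16. The gene's count in the table adds both transcripts, so p16 and p19ARF cannot be told apart here.
Cdkn1a start site 1, chr17:29090729-29090978, plus strand: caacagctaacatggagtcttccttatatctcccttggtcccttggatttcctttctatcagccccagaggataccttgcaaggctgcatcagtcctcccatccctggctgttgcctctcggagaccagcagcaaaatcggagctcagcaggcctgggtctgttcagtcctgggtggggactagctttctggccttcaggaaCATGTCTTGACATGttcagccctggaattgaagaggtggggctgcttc
Cdkn1a start site 2, chr17:29093519-29093768, plus strand: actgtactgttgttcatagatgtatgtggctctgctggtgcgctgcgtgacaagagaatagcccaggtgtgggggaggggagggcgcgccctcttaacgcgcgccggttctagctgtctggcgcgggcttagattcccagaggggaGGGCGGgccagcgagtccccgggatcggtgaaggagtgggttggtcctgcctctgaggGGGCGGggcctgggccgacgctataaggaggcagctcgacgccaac
Cdkn2a start site 1 (p19ARF), chr4:89294620-89294869, minus strand: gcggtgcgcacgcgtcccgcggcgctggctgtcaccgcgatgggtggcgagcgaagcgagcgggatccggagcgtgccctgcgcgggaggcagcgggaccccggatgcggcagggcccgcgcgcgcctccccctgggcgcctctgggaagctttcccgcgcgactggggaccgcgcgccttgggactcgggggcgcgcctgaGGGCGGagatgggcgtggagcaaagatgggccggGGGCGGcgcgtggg
Cdkn2a start site 2 (p16), chr4:89282193-89282442, minus strand: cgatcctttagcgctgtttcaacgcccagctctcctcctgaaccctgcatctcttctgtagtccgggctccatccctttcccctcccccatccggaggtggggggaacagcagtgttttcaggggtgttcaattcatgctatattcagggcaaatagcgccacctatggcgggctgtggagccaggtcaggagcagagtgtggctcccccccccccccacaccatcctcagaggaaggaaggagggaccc
Cdkn2b start site, chr4:89311033-89311282, minus strand: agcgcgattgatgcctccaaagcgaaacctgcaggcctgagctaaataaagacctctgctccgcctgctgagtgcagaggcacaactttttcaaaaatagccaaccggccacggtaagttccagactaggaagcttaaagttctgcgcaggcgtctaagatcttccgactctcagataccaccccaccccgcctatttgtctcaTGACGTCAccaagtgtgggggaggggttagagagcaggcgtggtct
The p53 core stood at -48 to -35 from the upstream start of Cdkn1a and in no other window of the family; it was found in 0.49% of 32851 RefSeq windows of this length. The cyclic AMP response element stood at -46 to -39 of Cdkn2b (1.55% of windows). GC boxes, present in 32.7% of windows, stood in the downstream window of Cdkn1a and the p19ARF window of Cdkn2a, and in those of Cdkn1b, Cdkn2c and Cdkn2d. The p19ARF window was 78.4% G and C with 40 CG pairs, and the p16 window 60% with 7. The E-box CACGTG (6.02% of windows), the E2F site TTTCGCGC (0.256%) and the TATA box TATAAA (12.4%) were in none of the 9 windows. These matches describe the letters only.

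The makeup of the family differed between groups. The 7 genes together reached 310.1 ± 6.14 FPKM in D_I, 333 ± 24.9 in Dox, 308 ± 3.5 in H_I, 271.7 ± 32.7 in H2O2, 254.3 ± 11.1 in B_I and 254.2 ± 6.83 in Blank (SD, n = 3 each). Cdkn1a made up 42.6% of that sum in D_I, 40.4% in Dox, 21.3% in H_I, 23.3% in H2O2, 12.2% in B_I and 10.3% in Blank. Cdkn2a was the largest member in the 4 groups without doxorubicin, at 37.4% in H_I, 35.6% in H2O2, 38.1% in B_I and 41.2% in Blank, and second to Cdkn1a in D_I (23.2%) and Dox (23.8%). The 4 INK4 genes summed to 170.2 ± 10.6 FPKM in D_I, 189.4 ± 11.3 in Dox, 227.1 ± 2.32 in H_I, 195.3 ± 23.7 in H2O2, 210 ± 18.9 in B_I and 215.8 ± 15.8 in Blank. In bulk RNA, fewer cells making a transcript and less of it per cell cannot be told apart.

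**Figure D1:**
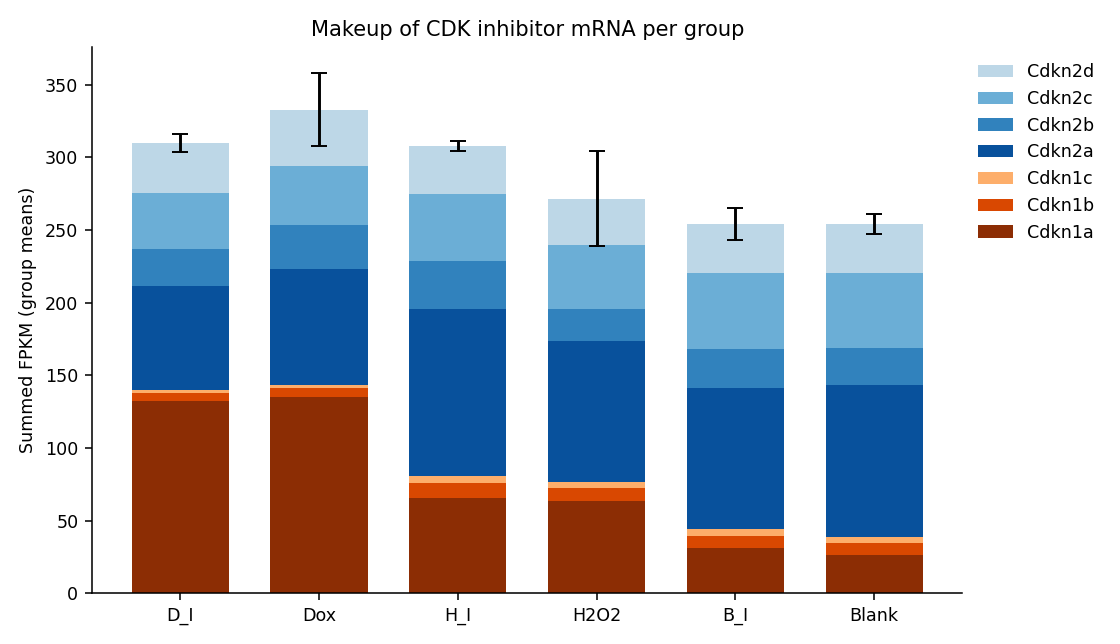
Stacked bars give the group mean FPKM (y axis) of each of the 7 genes, CIP/KIP in orange tones at the bottom and INK4 in blue tones above, for the groups on the x axis, and error bars give ± SD of the sum over 3 libraries. The Cdkn1a segment is 134.8 FPKM high in Dox, 63.28 in H2O2 and 26.18 in Blank, and the Cdkn2a segment 79.49, 97.15 and 104.8 FPKM in the same groups.

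In Dox against Blank, 3 of the 7 genes passed edgeR's quasi-likelihood test, Cdkn1a higher and Cdkn2a and Cdkn2c lower, where 21.7% of all tested genes passed (10.3% higher and 11.4% lower). The Dox and Blank libraries did not overlap for 4 of the 7, against 36.1% of all tested genes (19.6% higher and 16.5% lower). The median log2 fold change was -0.52 over the 7 and 0.08 over all tested genes. In H2O2 against Blank, 1 of the 7 passed, Cdkn1a, where 1.43% of all tested genes did (0.636% higher and 0.793% lower), and 2 of the 7 did not overlap, Cdkn1a higher and Cdkn2c lower (13.7% of all, 5.91% higher and 7.79% lower). The median was -0.21 over the 7 and -0.02 over all tested genes. Dox and H2O2 share the Blank libraries, so these comparisons are not independent. In Dox against H2O2, 1 of the 7 passed, Cdkn1a again (13.1% of all tested genes, 6.73% higher and 6.33% lower), and 6 of the 7 did not overlap, 3 higher and 3 lower (32.6% of all, 19% higher and 13.6% lower).

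**Figure D2:**
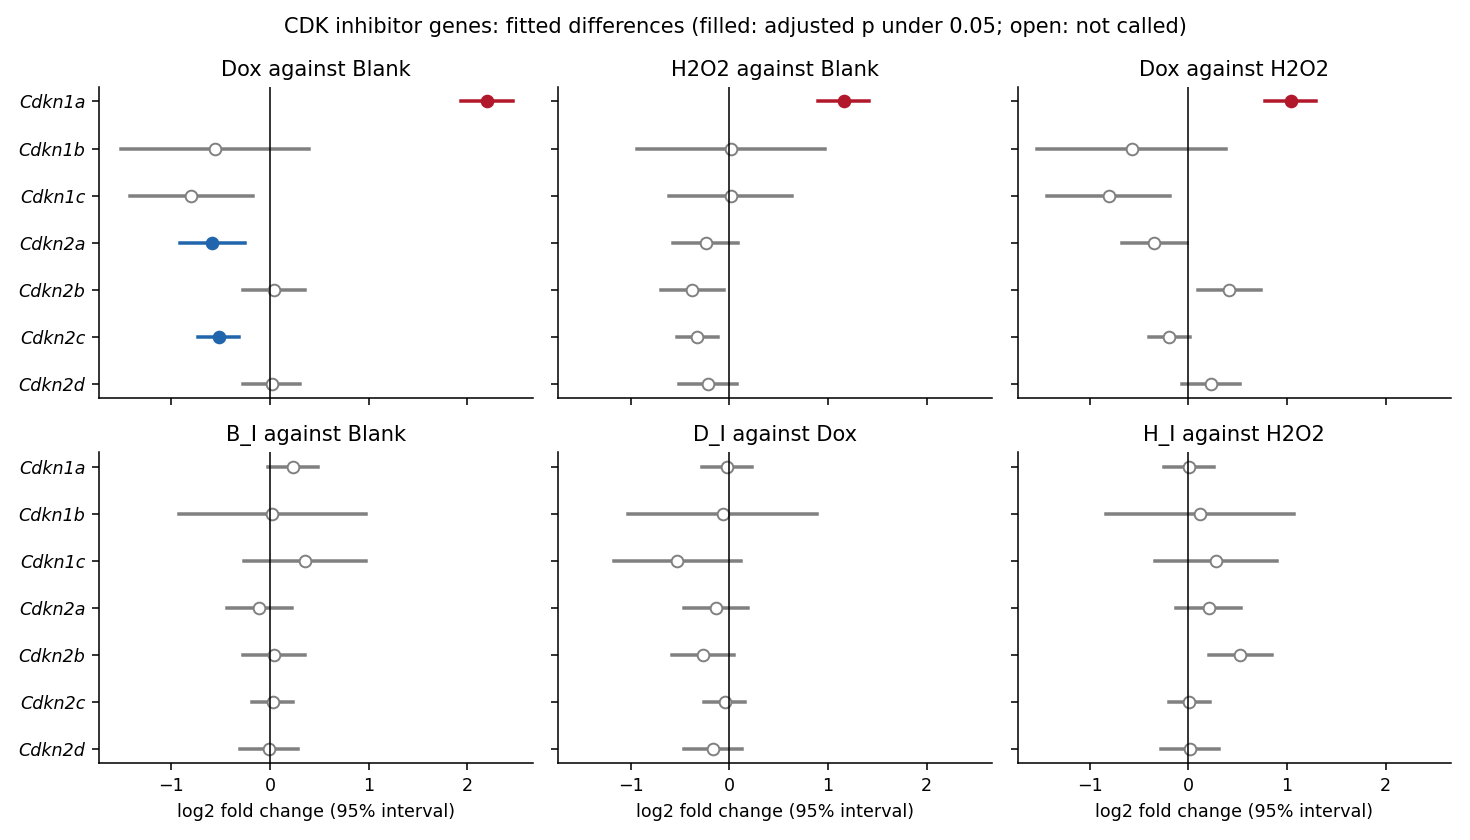
Points give the fitted log2 fold change (x axis) of each gene (rows) in 6 comparisons, with the 95% interval as a line, filled where the adjusted p was under 0.05 and open otherwise. Cdkn1a lies at 2.20 for Dox and 1.16 for H2O2, both against Blank, and 1.04 in Dox against H2O2, and every point of the 3 isoliensinine comparisons is open.

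Cdkn1a encodes p21, the inhibitor that p53 switches on after DNA damage. Its levels formed 3 separate tiers. Dox libraries held 422.3, 530.0 and 416.2 CPM, the H2O2 libraries 231.5, 231.2 and 205 CPM, and the Blank libraries 110.3, 97.24 and 90.54 CPM. The isoliensinine libraries lay beside them, at 492.5, 425.6 and 432.1 CPM in D_I, 229.7, 231.8 and 210.1 CPM in H_I and 127.7, 128.4 and 94.79 CPM in B_I. Each Dox and D_I library was above every H2O2 and H_I library, and these above every B_I and Blank library. The summed fibroblast markers formed the same tiers in the opposite order, and their part in the Cdkn1a result was not tested.
The rise was 4.59-fold in Dox against Blank (log2 2.20 with an SE of 0.127, adjusted p = 4.36e-10 by edgeR's quasi-likelihood test) and 2.24-fold in H2O2 against Blank (log2 1.16, SE 0.124, adjusted p = 2.61e-05). Dox stood 2.049-fold above H2O2 (log2 1.04 with an SE of 0.123, edgeR's adjusted p = 1.75e-05). The doses are not given, so the agents cannot be called matched. Without Blank_4 and B_I_3 the values against Blank were 2.11 and 1.12, and without H2O2_3 and H_I_1 Dox against H2O2 was 0.92. Among the isoliensinine arms, D_I stood 3.848-fold above B_I (log2 1.94, edgeR's adjusted p = 4.01e-09) and H_I 1.914-fold above B_I (log2 0.94, edgeR's adjusted p = 0.00066). By FPKM, Cdkn1a was below Cdkn2a, Cdkn2c and Cdkn2d in Blank (26.18, against 104.8, 51.25 and 33.81) and the highest of the 7 in Dox (134.8).

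**Figure D3:**
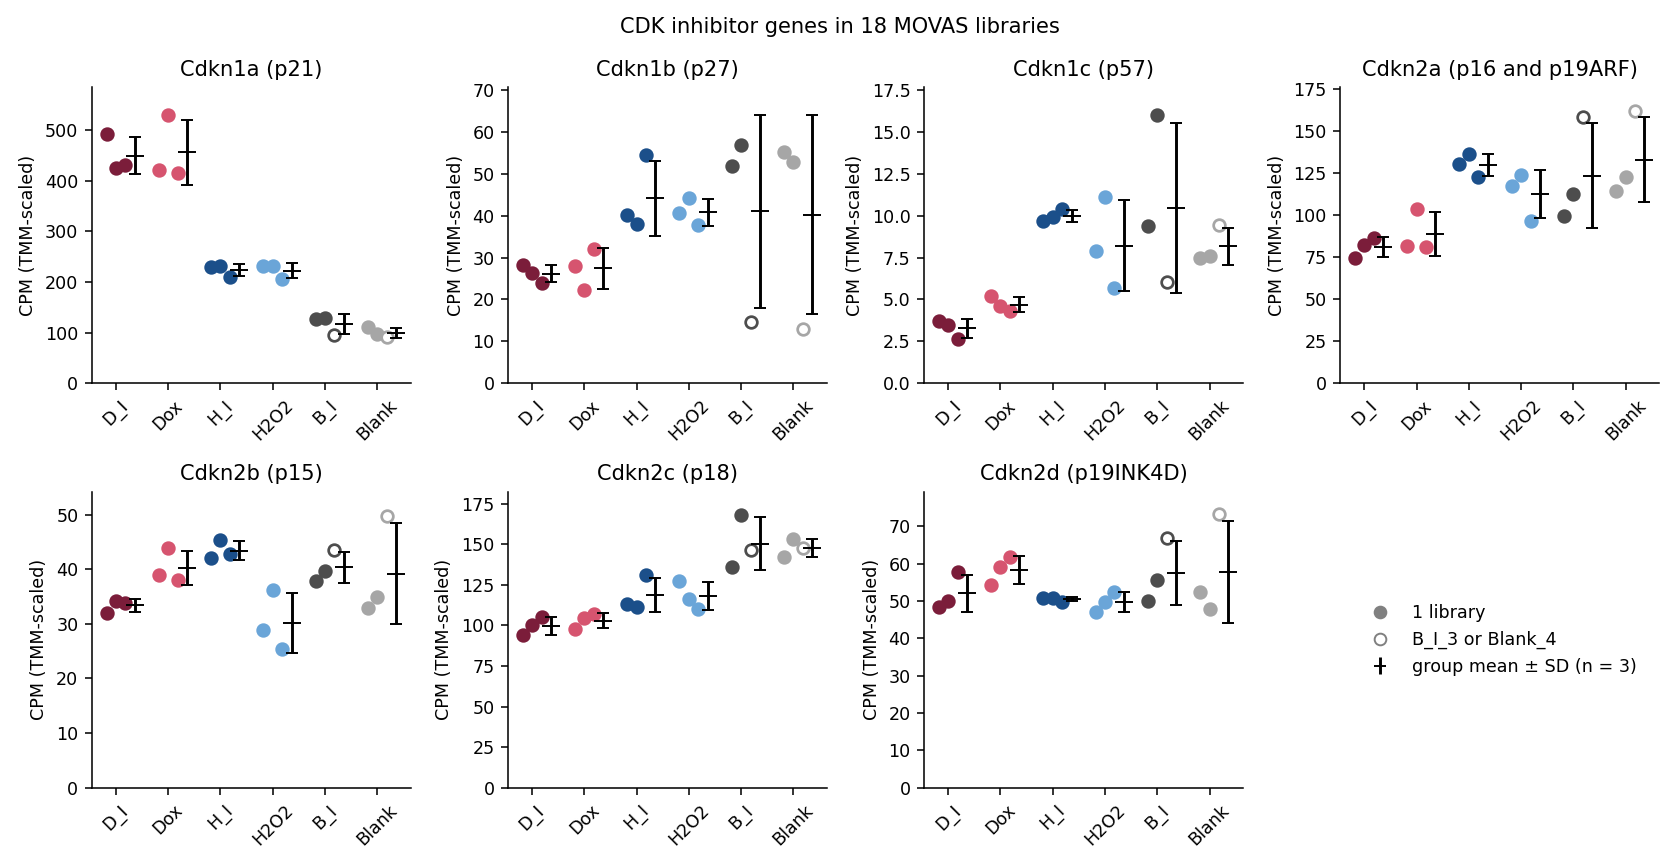
Each panel gives the CPM (y axis, from 0) of a gene in every library of the groups on the x axis, with the mean ± SD of 3 libraries beside the points and B_I_3 and Blank_4 as open circles. Cdkn1a falls into 3 tiers, from 416.2 CPM up in Dox and D_I, from 205 CPM in H2O2 and H_I, and from 90.54 CPM in B_I and Blank, and Cdkn1b is lowest in the open circles.

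Cdkn1b encodes p27, which restrains cyclin E-CDK2 in resting cells and is held down mainly by protein breakdown through SKP2. Its group means were not told apart in the full set. Cdkn1b stood at 27.96, 22.22 and 32.04 CPM in the Dox and at 40.61, 44.2 and 37.82 CPM in the H2O2 libraries, against 55.17, 52.75 and 13 CPM in Blank. D_I held 28.2, 26.37 and 23.97 CPM, H_I 40.21, 37.99 and 54.52 CPM, and B_I 51.85, 56.86 and 14.5 CPM. The lowest values of all were in Blank_4 and B_I_3, so the Dox and Blank libraries overlapped, while Dox lay below every H2O2 library. Dox against H2O2 was not called (-0.58, adjusted p = 0.462 by edgeR's quasi-likelihood test, 0.0241 to 0.67 over all alternatives), except when these groups were fitted alone (-0.62, 0.0241).
In Dox against Blank the log2 fold change of Cdkn1b was -0.56 (SE 0.449, adjusted p = 0.437 by edgeR's quasi-likelihood test, 2.42e-05 to 0.855 over all alternatives). Without Blank_4 and B_I_3 it was -1.003 and passed (edgeR's adjusted p = 2.42e-05); without Blank_4 alone it was -1.01 (0.0701). D_I against B_I gave -0.65 (edgeR's adjusted p = 0.368) with all libraries and -1.09 (9.75e-06) without the pair. H2O2 against Blank gave 0.02 with all libraries and -0.39 without the pair, with no call either way (edgeR's adjusted p = 0.995 and 0.176). In the same pair of libraries Skp2 itself was low, at 6.537 CPM in Blank_4 and 8.535 CPM in B_I_3, against 14.88 and 18.49 CPM in the other Blank libraries and 14.02 and 14.46 CPM in the other B_I libraries. Low Skp2 was not particular to the pair, since D_I_3 held 6.76 CPM of it with 23.97 CPM of Cdkn1b. The part that the separate position of Blank_4 and B_I_3 plays in the Cdkn1b values was not tested.

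**Figure D4:**
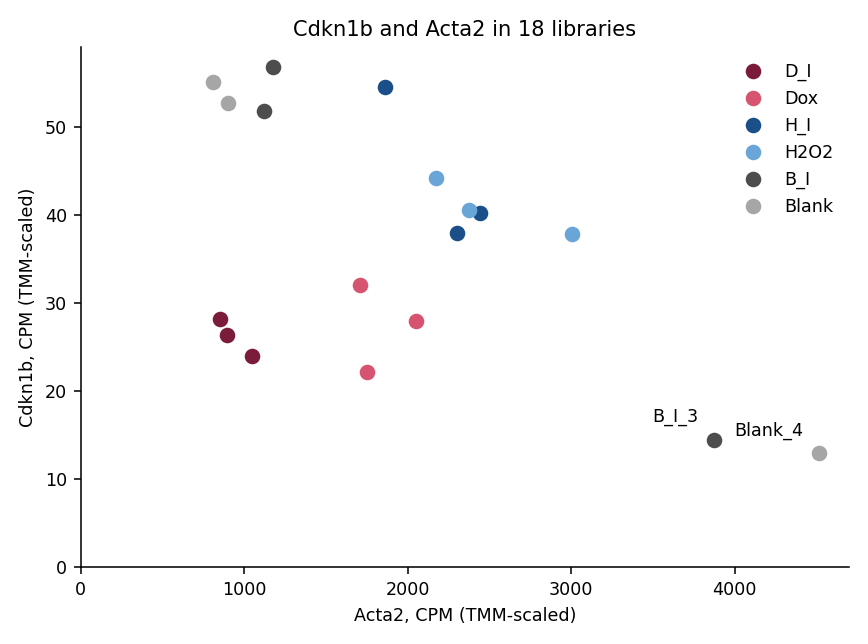
Each point is a library, with Acta2 CPM on the x axis and Cdkn1b CPM on the y axis, coloured by group. B_I_3 and Blank_4 stand alone at the lower right, with 14.5 and 13 CPM of Cdkn1b and 3875 and 4514 CPM of Acta2, and the Dox and D_I libraries lie between 22.22 and 32.04 CPM of Cdkn1b.

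Cdkn1c encodes p57, which acts mainly in development and is expressed from the maternal allele. It was the least abundant member, at 1.672 to 5.105 FPKM over the group means, and had 2164 counts over all 18 libraries. Cdkn1c stood at 5.179, 4.609 and 4.3 CPM in the Dox libraries, against 7.472, 7.58 and 9.467 CPM in Blank. In D_I it was at 3.735, 3.452 and 2.613 CPM, against 9.369, 16.01 and 6.033 CPM in B_I. H_I held 9.665, 9.93 and 10.39 CPM, against 7.896, 11.1 and 5.669 CPM in H2O2. No D_I library reached the lowest Dox library, and no Dox library the lowest of H2O2, H_I, B_I or Blank.
Cdkn1c fell to 0.3123 of its B_I level in D_I (log2 -1.68 with an SE of 0.311, edgeR's adjusted p = 6e-04). Dox against Blank gave -0.80 (SE 0.301) and did not pass (edgeR's adjusted p = 0.0642, 0.0394 to 0.267 over all alternatives); DESeq2 (0.0394) and a fit of the Dox and Blank libraries alone (0.0495) called it lower. Dox against H2O2 gave -0.81 (edgeR's adjusted p = 0.0807, range 0.0393 to 0.321 under the alternatives). Leaving out H2O2_3 and H_I_1 gave -1.07 (0.0466). The other imprinted genes around Cdkn1c did not share a direction. Of 10 listed, 5 were tested in Dox against Blank: Nap1l4 (0.32) and Cd81 (0.55) rose, Tssc4 fell (-0.74), and the median was 0.51 (0.08 over all tested genes). Calls made up 60% of those tested, against 21.7% of all tested genes. The call of Nap1l4 was lost without Blank_1, Dox_2 or Dox_3 (highest adjusted p 0.103 over all alternatives, edgeR's 0.0199 with all libraries).

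Cdkn2a, the gene of p16 and p19ARF, was lower with doxorubicin. The Dox libraries held 81.4, 103.7 and 81.06 CPM, the H2O2 libraries 117.4, 123.7 and 96.53 CPM, and the Blank libraries 114.6, 122.9 and 161.7 CPM. D_I held 74.27, 82.2 and 86.17 CPM, H_I 130.2, 136.1 and 122.7 CPM, and B_I 99.16, 112.6 and 158.6 CPM. The highest values were again in Blank_4 and B_I_3, and the groups also did not overlap without them, since the highest Dox library (103.7 CPM) lay below the lowest Blank library (114.6 CPM) and the highest D_I library (86.17 CPM) below the lowest B_I library (99.16 CPM).
Cdkn2a fell by 0.58 on the log2 scale in Dox against Blank (SE 0.157; adjusted p = 0.00992 by edgeR's quasi-likelihood test, 0.00296 to 0.06 over all alternatives). Leaving out Dox_1 (0.0554) or Dox_3 (0.06) ended the call. Without Blank_4 and B_I_3 it fell by 0.45 (edgeR's adjusted p = 0.00937). D_I against B_I gave a fall of 0.61 (edgeR's adjusted p = 0.00894), lost without B_I_3 (-0.42, 0.0625) or D_I_1 (0.0536), and 0.00191 to 0.0625 over all alternatives. Without both Blank_4 and B_I_3 the call held (-0.426, edgeR's adjusted p = 0.0145). H2O2 against Blank was not called (-0.24, edgeR's adjusted p = 0.548). Of 4 listed neighbours of the locus, 2 were tested and neither passed. Mtap, the methylthioadenosine phosphorylase gene beside it, averaged 89.48 ± 4.7 CPM in Dox and 111.4 ± 25 CPM in Blank (log2 -0.32, edgeR's adjusted p = 0.206).

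Cdkn2b, which encodes p15 and is induced by TGF-beta in many cells, was not called in any comparison by edgeR's quasi-likelihood test. The Dox libraries held 38.88, 43.81 and 38.06 CPM, the H2O2 libraries 28.91, 36.14 and 25.32 CPM, and the Blank libraries 32.88, 34.82 and 49.82 CPM. Dox lay above every H2O2 library and overlapped with Blank through Blank_4 alone (49.82 CPM). The log2 fold change was 0.04 in Dox against Blank (edgeR's adjusted p = 0.891) and ran from -0.07 to 0.27 over all alternatives. Without Blank_4 and B_I_3 it was 0.22 (edgeR's adjusted p = 0.303). Dox against H2O2 gave 0.42 (SE 0.152, edgeR's adjusted p = 0.0755, 0.00871 to 0.418 over all alternatives). That last difference passed without H2O2_2 (0.58, 0.0231) and with limma on log2(FPKM + 1) (0.47, 0.00871). It was 0.25 (0.418) without H2O2_3 and H_I_1.
Its isoliensinine arms lay on opposite sides of the agents alone. D_I held 32.06, 34.23 and 33.86 CPM, each below the Dox libraries, and H_I held 41.98, 45.39 and 42.85 CPM, each above the H2O2 libraries. B_I held 37.82, 39.69 and 43.45 CPM and overlapped with Blank. H_I stood 1.439-fold above H2O2 (log2 0.53, SE 0.153) at an unadjusted p of 0.002493, but did not pass over all genes (edgeR's adjusted p = 0.36, 0.111 to 1 over all alternatives), and it was 0.42 (1) without H2O2_3 and H_I_1. The summed colon and liver markers also did not overlap between H_I and H2O2, with none of either list at 0: the 10 colon markers summed to 217 to 728 CPM in H_I and 44.5 to 167 CPM in H2O2 (median log2 2.21, 9 of 10 at an unadjusted p under 0.05), and the 10 liver markers to 151 to 420 CPM in H_I and 55.1 to 146 CPM in H2O2 (1.64, 8 of 10). Of either list 0 passed edgeR's quasi-likelihood test, and their part in the Cdkn2b values was not tested. D_I against Dox was -0.27 (SE 0.151; edgeR's adjusted p = 0.999). The summed smooth muscle markers also did not overlap there, at 1470 to 1710 CPM in D_I and 2410 to 2770 CPM in Dox. Their median log2 value was -0.118, with 1 of 9 at an unadjusted p under 0.05, and their part in the Cdkn2b values was not tested.

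Cdkn2c encodes p18 and had the smallest spread between replicates of the 7, a biological coefficient of variation of 0.0939. The Dox libraries held 97.62, 104.7 and 106.9 CPM, the H2O2 libraries 127.3, 116.1 and 110.3 CPM, and the Blank libraries 142.1, 153 and 147.8 CPM. D_I held 94.32, 100 and 105.1 CPM, H_I 113.5, 111.6 and 131 CPM, and B_I 136.2, 168.3 and 146.7 CPM. The groups fell into the same 3 tiers as Cdkn1a in the opposite order, with no overlap between tiers, and Blank_4 and B_I_3 lay within their groups. The summed fibroblast markers had these tiers in the same order, and their part in the Cdkn2c result was not tested.
Cdkn2c fell by 0.52 on the log2 scale in Dox against Blank (SE 0.1; adjusted p = 0.000733 by edgeR) and by 0.59 in D_I against B_I (SE 0.101; edgeR's adjusted p = 0.000266), and both calls held in all 16 alternatives. H2O2 against Blank gave -0.33 (SE 0.101) and did not pass (edgeR's adjusted p = 0.117, 0.0846 to 0.714 over all alternatives), nor did H_I against B_I (-0.34, edgeR's adjusted p = 0.0898, 0.033 to 0.341 over all alternatives), which passed without B_I_1 (0.0456) and with DESeq2 (0.033). Dox against H2O2 was -0.19 (edgeR's adjusted p = 0.225).

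Cdkn2d encodes p19INK4D and moved least, with group means from 49.77 ± 2.74 CPM in H2O2 to 58.38 ± 3.78 CPM in Dox. The Dox libraries held 54.25, 59.19 and 61.69 CPM, the H2O2 libraries 47.03, 49.78 and 52.5 CPM, and the Blank libraries 52.3, 47.82 and 73.26 CPM. D_I held 48.31, 50.06 and 57.71 CPM, H_I 50.76, 50.7 and 49.8 CPM, and B_I 50.05, 55.63 and 66.74 CPM. Blank_4 and B_I_3 were the highest of the 18, and Dox lay above every H2O2 library. Dox against Blank gave 0.02 (95% interval -0.28 to 0.31, edgeR's adjusted p = 0.959), and 0.196 (0.262) without Blank_4 and B_I_3. Dox against H2O2 gave 0.23 (edgeR's adjusted p = 0.321), which limma on log2(FPKM + 1) called (0.0425, the lowest of 0.0425 to 0.576 over all alternatives).

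Isoliensinine left no called difference in the family in any arm. In B_I against Blank, D_I against Dox and H_I against H2O2, edgeR's quasi-likelihood test called 0 of the 7 genes and 0% of all tested genes in each, and DESeq2 and limma also called 0 of the 7. At an unadjusted p under 0.05 the counts were 0, 0 and 1 of the 7, the 1 being Cdkn2b in H_I, and 640, 556 and 915 of all tested genes. Over all genes DESeq2 called 1, 20 and 67. In B_I against Blank no member had groups that did not overlap (7.29% of all tested genes, 3.57% higher and 3.72% lower). In D_I against Dox 2 of the 7 lay lower without overlap, Cdkn1c and Cdkn2b (18.8% of all, 10.2% higher and 8.62% lower). So did the summed smooth muscle markers, whose part in these values was not tested. In H_I against H2O2 1 lay higher, Cdkn2b (12.1% of all, 7.01% higher and 5.12% lower). For Cdkn1a the intervals bound the difference: -0.02 to 0.49 in B_I against Blank, -0.27 to 0.23 in D_I against Dox and -0.25 to 0.26 in H_I against H2O2 (95%, log2). Cdkn1c gave -0.53 in D_I against Dox (SE 0.31, unadjusted p = 0.1051 from edgeR's quasi-likelihood test). Interaction contrasts, which ask whether the isoliensinine difference itself differs between backgrounds, called 0 of the 7 in each of 3 pairs of backgrounds and 0% of all tested genes (edgeR's quasi-likelihood test, with 0, 1 and 1 of the 7 and 522, 813 and 1054 of all tested genes at an unadjusted p under 0.05), and 0 of the 7 under every alternative, DESeq2 and limma included.
D_I and H_I were also set against B_I, which as read here share isoliensinine. In D_I against B_I, 4 of the 7 passed, Cdkn1a higher and Cdkn1c, Cdkn2a and Cdkn2c lower (18.8% of all tested genes, 9.41% higher and 9.41% lower), and 5 of the 7 did not overlap, 1 higher and 4 lower (38.1% of all, 21.1% higher and 17.1% lower). In H_I against B_I, 1 of the 7 passed, Cdkn1a (1.46% of all tested genes, 0.464% higher and 0.994% lower), and 2 did not overlap, Cdkn1a higher and Cdkn2c lower (23.2% of all, 11.1% higher and 12.1% lower).

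The p53 arm, a list of Trp53, its regulators and its textbook targets without Cdkn1a, had 46.4% of its genes called with doxorubicin, against 21.7% of all tested genes. Of 28 genes tested in Dox against Blank, 12 were higher and 1, Sesn1, lower by edgeR's quasi-likelihood test, with a median log2 fold change of 0.69 (0.08 over all tested genes). Mdm2, the ligase that degrades p53 and is itself a p53 target, held 20.67, 15.04 and 22.36 CPM in Dox, against 6.849, 5.361 and 4.433 CPM in Blank (log2 1.799, SE 0.259, edgeR's adjusted p = 3.55e-05). Ccng1, the cyclin G1 gene, rose to 123.1 ± 22.8 CPM in Dox, against 35.66 ± 16.9 CPM in Blank (log2 1.78, edgeR's adjusted p = 0.00115). Eda2r rose by 1.66 (edgeR's adjusted p = 0.00925), a call lost without Dox_3 (0.0655) and 0.00182 to 0.0732 over all alternatives. Trp53 itself was not called (253.2 ± 19.6 CPM in Dox and 292.4 ± 31.5 CPM in Blank, log2 -0.21, edgeR's adjusted p = 0.133), and its mRNA says nothing of the protein.
With H2O2, 3 of the 28 were higher and 0 lower (10.7% called against 1.43% of all tested genes, median 0.27 against -0.02): Btg2 (0.64, edgeR's adjusted p = 0.0246), an antiproliferative gene, Sesn2 (0.50, 0.03), a sestrin, and Zmat3 (0.46, 0.0496), an RNA-binding protein gene. Each of these calls was lost without Blank_1, without Blank_2 and without H2O2_1, and the count ran from 0 to 7 over all alternatives. Mdm2 stood at 6.669 ± 1.26 CPM in H2O2 and 5.548 ± 1.22 CPM in Blank (log2 0.26, edgeR's adjusted p = 0.739). In Dox against H2O2, 9 of the 28 were higher and 0 lower (32.1% called against 13.1% of all tested genes, median 0.48 against 0.07), led by Mdm2 (1.54, edgeR's adjusted p = 0.000402), Plk2 (1.08) and Ccng1 (1.08, which failed to pass on leaving out any 1 of the 6 libraries).

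The partners of the inhibitors moved both ways. Of 15 cyclins and CDKs, 5 were higher and 2 lower in Dox against Blank (median 0.04), 46.7% of the list, against 21.7% of all tested genes. Ccnd1, the cyclin D1 gene, rose to 112.3 ± 0.955 CPM in Dox and 65.42 ± 19.9 CPM in H2O2, against 27.2 ± 7.23 CPM in Blank (log2 2.04 and 1.26; edgeR's quasi-likelihood test, adjusted p = 2.17e-06 and 0.00516). The mitotic cyclin genes Ccnb1 (1.02) and Ccnb2 (1.04) rose in Dox, as did Cdk1, while Cdk4, the kinase that INK4 proteins bind, was lower at 340.4 ± 31.9 CPM in Dox and 585.6 ± 47.3 CPM in Blank (log2 -0.78, edgeR's adjusted p = 3.6e-06). Ccnd1 was the only member of this list called in H2O2 against Blank (6.67% of the list, against 1.43% of all tested genes). Of 13 retinoblastoma and E2F genes, 0 passed in Dox against Blank (median -0.002) or in H2O2 against Blank (median -0.31) by edgeR's quasi-likelihood test, with 4 at an unadjusted p under 0.05 in each, and up to 3 and 1 passed over the alternatives, which include DESeq2 and limma. Rb1 stood above H2O2 in Dox (log2 1.18, edgeR's adjusted p = 0.00634), which did not pass without H2O2_3 and H_I_1 (0.0607, the highest of 0.000997 to 0.0607 over all alternatives).
Among 20 tested activators and repressors of Cdkn1a beside p53, 3 were higher and 2 lower in Dox against Blank (median 0.20), which is 25% of the list, near the 21.7% of all tested genes. The forkhead factor gene Foxo4 fell by 1.04 (edgeR's adjusted p = 6.46e-07), the histone deacetylase gene Hdac1 rose by 1.03 (3.36e-06) and Brca1 rose by 0.79 (0.0324, lost without Blank_4, Dox_1 or Dox_3, and 0.0109 to 0.18 over all alternatives). Foxo4 was also lower in H2O2 against Blank (-0.54, edgeR's adjusted p = 0.0118), the 1 call of the list there (5% of the list, against 1.43% of all tested genes). Of 32 Polycomb and other regulators of the Ink4 locus, 2 were higher and 4 lower in Dox against Blank (median -0.08), a share of 18.8% that does not exceed the 21.7% of all tested genes. In H2O2 against Blank edgeR called 0, with 6 at an unadjusted p under 0.05 and up to 6 called over the alternatives. Pcgf2 (-0.91, edgeR's adjusted p = 0.00021) and Cbx2 (-0.83, 0.000431), both Polycomb subunits, fell in Dox, and Kmt2a, a histone methyltransferase gene, rose (0.69, 0.0449, lost without Blank_1, Blank_4, Dox_1 or Dox_3).
Of 18 ubiquitin ligase and turnover genes, 2 were higher and 1 lower in Dox against Blank (median 0.13), a share of 16.7%, below the 21.7% of all tested genes. In H2O2 against Blank edgeR called 0, with 1 at an unadjusted p under 0.05 and at most 1 called over the alternatives. Cul4a (0.59, edgeR's adjusted p = 0.0236, lost without Blank_4 or Dox_3) and Mkrn1 (0.49, 0.0046) were higher, and Ubac1 (-0.32, 0.0318, lost without Blank_4, Dox_1 or Dox_3) was lower. Of 17 other senescence and quiescence regulators, 0 were higher and 6 lower in Dox against Blank (median -0.14, 35.3% of the list, against 21.7% of all tested genes), led by Gas1 (-1.39, edgeR's adjusted p = 7.59e-06), a growth-arrest gene, Bhlhe40 (-1.08, 0.0106, lost without Blank_1 or Dox_3) and Tgfb1 (-0.77, 7.27e-05). In H2O2 against Blank 1 was lower (5.88% of the list, against 1.43% of all tested genes), Glb1, the lysosomal beta-galactosidase gene (-0.45, edgeR's adjusted p = 0.0179, lost without Blank_2, H2O2_1 or H2O2_2). When the H2O2 and Blank libraries were fitted alone, none of the 6 list genes named for this comparison passed, Ccnd1 (0.194) and Foxo4 (0.424) among them, against 5.82e-06 and 6.87e-05 at the lowest over all alternatives, while Cdkn1a passed. Mki67, a proliferation marker, was not called in Dox against Blank (37.73 ± 12.9 CPM in Dox and 28.72 ± 3.9 CPM in Blank, edgeR's adjusted p = 0.226). In Dox against H2O2, 2 of these 17 regulators were higher and 4 lower (35.3% of the list, against 13.1% of all tested genes). Mki67 was among the higher ones (log2 1.11, edgeR's adjusted p = 0.00196), a call that held in all 16 alternatives. Over the 150 tested genes of all 9 lists, edgeR called 0 in each isoliensinine comparison, with 8 in B_I, 13 in D_I and 11 in H_I at an unadjusted p under 0.05.

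**Figure D5:**
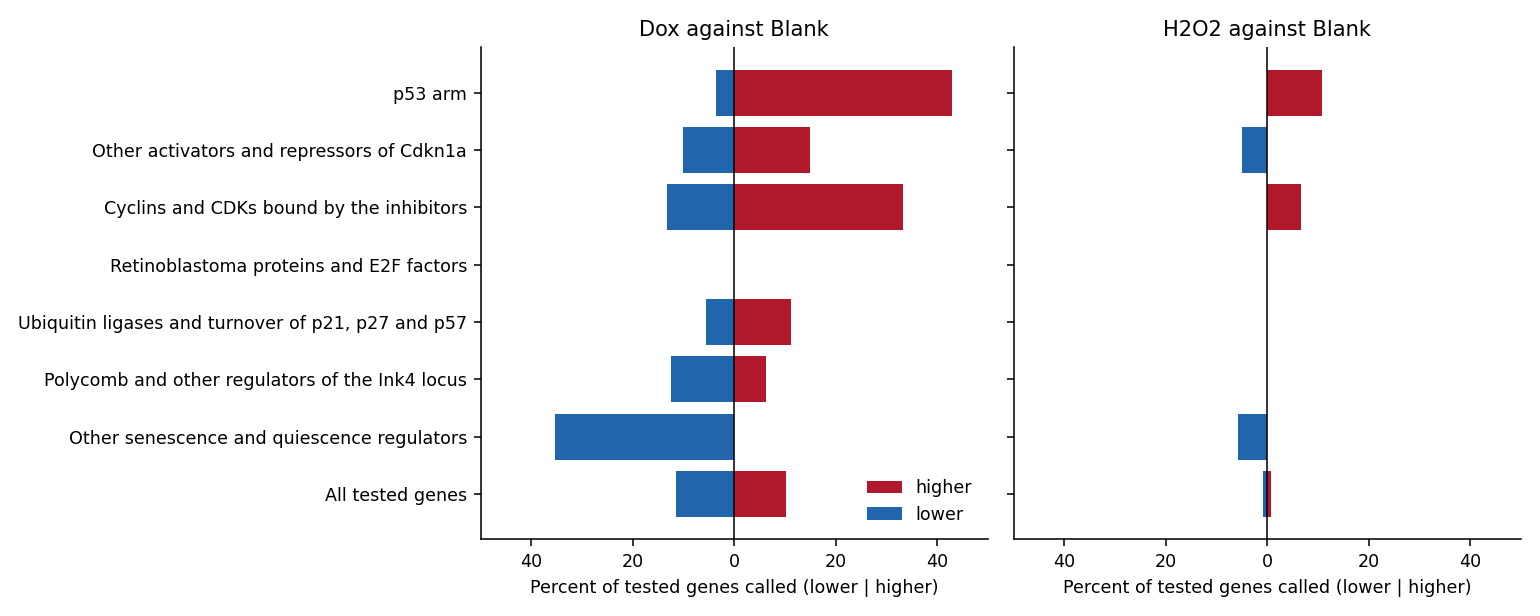
Bars give the percent of tested genes of each list called higher (right) and lower (left) in Dox and in H2O2, each against Blank, with all tested genes at the bottom. The p53 arm has 12 of 28 genes higher in Dox, the 17 other senescence and quiescence regulators have 6 lower and 0 higher, and all tested genes have 10.3% higher and 11.4% lower.

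Genes whose log2 CPM followed each member most closely over the 18 libraries were sought among 9076 genes of at least 5 CPM. The libraries share their treatments and depth, so these correlations describe the data and carry no test. For Cdkn1a they were Ces2e (Pearson r = 0.989), a carboxylesterase gene, Bub1b (0.968), a mitotic checkpoint gene, and Btg2 (0.967), a p53 target. For Cdkn1b they were Zfp91 (0.961), Usp1 (0.954) and Yy1 (0.935), and for Cdkn1c Slc25a5 (0.909), G6pdx (0.907) and Gpr137b (0.906). For Cdkn2a they were Kirrel3 (0.925), S100a6 (0.921) and Cox6b1 (0.92), for Cdkn2c Pdgfrl (0.932), Fmod (0.926) and H2az1 (0.925), and for Cdkn2d Rpl11 (0.896), Erh (0.892) and Daam2 (0.872). Cdkn2b had the weakest likeness, to Parva (0.824), Nup133 (0.788) and Ndufaf1 (0.76).
Between members, over the same 18 libraries, Cdkn1a ran opposite to Cdkn2c (r = -0.92), Cdkn2a (-0.75) and Cdkn1c (-0.66). Cdkn1b ran opposite to Cdkn2d (-0.76), and Blank_4 and B_I_3 held the lowest Cdkn1b and the highest Cdkn2d. The neighbours Cdkn2a and Cdkn2b had r = 0.51.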

How the data were processed

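The deposited table gave raw counts per gene and the authors' FPKM for 21959 mouse genes in 18 libraries; RNA was captured with poly-T beads, per the labels' protocols. fastp 0.22.0, HISAT2 2.1.0 and HTSeq 0.9.1 stand in the submitters' processing notes, without their roles or settings. The strand setting and the genome build: not given in the sources used here. The deposited FPKM values were recomputed from the deposited counts, gene lengths and library sums, and 100% matched within a relative tolerance of 1e-06. The 51 genes with no symbol held 0.0187% of counts.
Libraries were grouped by their labels. Counts were filtered with filterByExpr, scaled by trimmed means of M-values and fitted with edgeR 4.0.16 (limma 3.58.1, R 4.3.3) in a single quasi-likelihood model of the 18 libraries, whose coefficients were the 6 group means. Two-sided p-values were adjusted (Benjamini-Hochberg) over all 13375 tested genes, with a threshold of 0.05. Standard errors are the fold change over the square root of the F statistic. No replicates agreed within sampling noise (lowest chi-square per degree of freedom 5.512). The code was tested on simulated data.
The alternatives were DESeq2 1.42.0, other scalings and filters, limma on the FPKM values (log2 with a pseudocount of 1 or 0.1, genes of at least 1 FPKM), models of the compared groups alone, a replicate block, and left-out libraries. Leaving out H2O2_3 with H_I_1 was chosen after seeing the data. From each of 9 pathway lists, the named genes are up to 3 called with the largest change in a comparison. Trp53 and Mdm2 are always named. Cdk1, Cdk4, Sesn1, Mtap, Mki67 and Skp2, and the markers Myh11 and Cnn1, were chosen after their values were seen. The members and lists were chosen with earlier results of these data known. Promoter windows came from RefSeq.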

Additional observations from a re-analysis of the deposited data

Results flagged for a closer look

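Cdkn2b, the p15 gene, was picked out because isoliensinine went with opposite differences in the doxorubicin and the peroxide background. Each D_I library (32.06, 34.23 and 33.86 CPM) lay below each Dox library (38.88, 43.81 and 38.06 CPM), and each H_I library (41.98, 45.39 and 42.85 CPM) lay above each H2O2 library (28.91, 36.14 and 25.32 CPM). The difference of the log2 differences, (D_I - Dox) - (H_I - H2O2), was -0.795 (SE 0.215, 95% interval -1.24 to -0.35). Its unadjusted p was 0.001342 and its adjusted p 0.522 by edgeR's quasi-likelihood test over all tested genes, so it did not pass. Without H2O2_3 and H_I_1, H_I against H2O2 was 0.42 and not called. In the contrast (D_I - Dox) - (H_I - H2O2) the colon markers had a median log2 value of -2.15 (6 of 10 at an unadjusted p under 0.05) and the liver markers -1.05 (4 of 10). The smooth muscle markers had -0.775 (4 of 9). Their sum did not overlap between D_I (1470 to 1710 CPM) and Dox (2410 to 2770 CPM). The part of these lists in the Cdkn2b value was not tested.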

How the results depend on the processing

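The calls of Cdkn1a (in Dox and H2O2 against Blank, Dox against H2O2, and D_I and H_I against B_I), of Cdkn2c in Dox against Blank and D_I against B_I, and of Cdkn1c in D_I against B_I held under every alternative run, and no called member changed direction under any. Among members, other calls changed under at least 1 alternative; the causes were not tested. Of the list genes, Brca1, Cul4a, Kmt2a and Ubac1 in Dox against Blank also lost their calls with a replicate block and in the compared groups alone. Each was also lost without Blank_4, which the block sets aside. Over the leave-one-out fits the genes called numbered 1876 to 2869 in Dox against Blank, 94 to 259 in H2O2 against Blank, 845 to 1741 in Dox against H2O2, 1615 to 2545 in D_I against B_I, 37 to 424 in H_I against B_I, 0 to 4 in B_I against Blank and 0 to 10 in H_I against H2O2; the CDK inhibitors called numbered 1 to 2 in Dox against H2O2 and in H_I against B_I.
Of genes called in H2O2 against Blank (191), DESeq2 gave 400, limma 506 and 512 (pseudocounts 1 and 0.1), the compared groups alone 5, and the set without Blank_4 and B_I_3 526. In H_I against B_I (195) the same fits gave 497, 364, 356 and 35, and leaving out H2O2_3 and H_I_1 80. In Dox against H2O2 (1746), leaving out H2O2_3 and H_I_1 gave 1076. In B_I against Blank (0), DESeq2 and no filter gave 1 each and leaving out Blank_4 and B_I_3 3. In D_I against Dox (0), DESeq2 gave 20, no filter 2, limma 1 and 1, and the compared groups alone 263; in H_I against H2O2 (0) DESeq2 gave 67. CDK inhibitors called in Dox against H2O2 (1) were 2 with DESeq2 (Cdkn1a and Cdkn1c), 3 with both limma fits (with Cdkn2b and Cdkn2d), 2 in the compared groups alone (with Cdkn1b) and 2 without H2O2_3 and H_I_1 (with Cdkn1c); in H_I against B_I (1), DESeq2 gave 2 (with Cdkn2c).
The same replicate number did not pair the libraries throughout. Of 40 same-numbered pairs, 9 correlated above 0.1 (range -0.188 to 0.279), and 9 of 17 libraries correlated best with their own number. The pairs among B_I_1, Blank_1, H_I_1 and Dox_1 all correlated above 0.1, at 0.136 to 0.279. H2O2_1 and D_I_1 did not join them (-0.112 and -0.085 with H_I_1). What B_I_1, Blank_1, H_I_1 and Dox_1 share was not tested. Only Blank_4 carries its number, so the block also sets Blank_4 aside in comparisons with Blank. There, an effect of the block cannot be told from the loss of Blank_4. With a replicate block, genes called were 616 in H_I against B_I, 4 in D_I against Dox and 2 in H_I against H2O2, and CDK inhibitors called were 2 in Dox against H2O2 (with Cdkn2b). Cdkn2a in Dox against Blank then gave -0.435 (adjusted p = 0.0513 by edgeR's quasi-likelihood test, 0.00296 to 0.06 over all alternatives). The block turned uncalled values to -0.339 for Cdkn1b in H2O2 against Blank, to 0.016 for Cdkn1c in H_I against B_I, and in B_I against Blank to -0.365 for Cdkn1b, 0.042 for Cdkn2a, 0.138 for Cdkn2d and 0.082 for Trp53.
Other values near 0, all uncalled, changed sign. In Dox against Blank, Cdkn2b gave -0.003 with DESeq2 and -0.004 with its size factors, and Cdkn2d -0.03, -0.03 and, in the compared groups alone, -0.008. In B_I against Blank, Cdkn2d gave 0.006 with DESeq2 and its size factors, 0.016 with upper-quartile scaling, 0.013 with a filter of 5 CPM, 0.007 with both limma fits and in the compared groups alone, and 0.083 without Blank_4 and B_I_3; Trp53 gave 0.001, 0 and 0.01 with upper-quartile scaling, the 5 CPM filter and without that pair. With limma (pseudocounts 1 and 0.1), Cdkn2d in D_I against B_I gave 0.026 and 0.027, and Cdkn1c in H_I against B_I 0.152 and 0.202. Without Blank_4 and B_I_3, Cdkn1b gave -0.385 in H2O2 against Blank and -0.29 in H_I against B_I, and Cdkn2d 0.004 in H2O2 against Blank; without H2O2_3 and H_I_1, Cdkn1a gave -0.081 and Cdkn2c -0.02 in H_I against H2O2.
Leave-one-out values that crossed 0 are given as ranges of log2 fold change. In B_I against Blank they were -0.387 to 0.438 for Cdkn1b, -0.081 to 0.651 for Cdkn1c, -0.314 to 0.053 for Cdkn2a, -0.068 to 0.251 for Cdkn2b, -0.064 to 0.092 for Cdkn2c, -0.128 to 0.197 for Cdkn2d and -0.074 to 0.073 for Trp53. In D_I against Dox they were -0.092 to 0.099 for Cdkn1a and -0.2 to 0.057 for Cdkn1b. In H_I against H2O2 they were -0.047 to 0.052 for Cdkn1a, -0.064 to 0.213 for Cdkn1b, -0.066 to 0.071 for Cdkn2c, -0.018 to 0.059 for Cdkn2d and -0.192 to 0.252 for Mdm2. In H2O2 against Blank they were -0.389 to 0.307 for Cdkn1b and -0.267 to 0.219 for Cdkn1c, and in Dox against Blank -0.066 to 0.221 for Cdkn2b and -0.1 to 0.193 for Cdkn2d. In H_I against B_I they were -0.298 to 0.429 for Cdkn1b, -0.345 to 0.396 for Cdkn1c and -0.064 to 0.292 for Cdkn2a. The median of all genes in Dox against Blank was 0.081 in the TMM count fit, and 0.178 and 0.229 in the limma fits of FPKM with pseudocounts of 1 and 0.1. Cdkn1c had the fewest counts of the members, 2164 over all libraries.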
